A study of Mus musculus with 4 samples.

Results

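Collagens, laminins and nidogens are the proteins from which cells build fibrils and basement membranes, and integrins are the receptors by which cells hold on to them. Each integrin pairs an alpha chain, which largely sets the ligand, with a beta chain, whose short tail binds talin and links the receptor to actin. In the embryonic heart tube the myocardium and the endocardium each lie on a basement membrane of laminin, collagen IV and nidogen, with a loose matrix between them from which the valve cushions form. The genes of these families were followed in hearts that had lost Hdac3, a class I histone deacetylase. They were chosen by gene symbol (collagen, laminin, nidogen and integrin chains), and a gene was kept if its probe was well above background in the Cy5 channel of all 4 arrays or in the Cy3 channel of all 4. The arrays carried 77 such genes, and 61 were kept (30 collagens, 11 laminins, 2 nidogens and 18 integrins) out of 19864 genes tested. A gene with several probes was represented by the one of highest mean signal.

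The mutant hearts were Nkx2.5Cre; Hdac3f/f, with Cre expressed from Nkx2.5 in cardiac progenitors, and their controls were Hdac3f/f littermates with no Cre named, all at E9.5 on a mixed CD1/B6/129 background. Loss of Hdac3 and presence of the Cre therefore cannot be told apart, and cells outside the Nkx2.5 lineage keep the gene. RNA from a pool of 3 mutant hearts and a pool of 3 control hearts was hybridised together on each of 4 dual-colour Agilent arrays, so n = 4 pairs of pools. The values are log2 ratios of mutant over control from the authors' deposited table, in which 0 means equal signal.

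The direction of the ratios is not settled. The labels put mutant RNA in Cy5 on every array, whereas the deposited columns follow the scanner's Cy5/Cy3 ratio on arrays 1 and 2 (slopes of 1.03 and 1.01) and its inverse on arrays 3 and 4 (slopes of -0.99 and -1.01). Ratios below follow the column names, and the sign of 40 of 61 members' means turns when all arrays are read as labelled, a reading given beside many of the values. Over all probes, arrays 1 and 2 correlated at r = 0.57 and arrays 3 and 4 at 0.45 in either reading. As deposited, r was -0.42 for arrays 1 and 4, -0.27 for 2 and 4, -0.073 for 2 and 3 and -0.047 for 1 and 3. Each of these turns above 0 as labelled. The Hdac3 probe itself was at -0.22, -0.50, -0.52 and -1.15 on arrays 1 to 4 (limma, adjusted p = 0.624), with a mean of -0.60 ± 0.39 (SD, n = 4) that was 0.24 as labelled, and whether this probe lies in the deleted part is not known here. Embryonic stem cells are named in the description of replicates 2 to 4, though titles, sources and genotypes speak of hearts. The 9 heart muscle markers checked were all past the filter, with a median signal that ranked between percentiles 99.02 and 99.69 of all probes in mutant pools and between 99.06 and 99.46 in control pools. Of 6 pluripotency markers Nanog, Utf1, Zfp42 and Dppa5a were past the filter while Pou5f1 and Sox2 were not. The median signal of those past it ranked between percentiles 55.15 and 56.93 in mutant pools and between 54.58 and 55.59 in control pools.

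With the signs of the deposited columns, the median ratio of the matrix and integrin genes lay near 0, and none passed the test. No gene on the arrays passed it, Hdac3 included, so this does not show that the members were unchanged. By limma with Benjamini-Hochberg adjustment over all 19864 genes, 0 of 61 members had an adjusted p below 0.05, against 0% of all genes, and members' adjusted p-values ran from 0.616 to 0.986. At an unadjusted p below 0.05 there were 3 members higher (4.92%, against 3.64% of all genes) and 3 lower (4.92%, against 4.32%). The median log2 ratio was -0.052 over the members and 0.012 over all genes, with members' medians of -0.070, -0.074, 0.045 and -0.0050 on arrays 1 to 4. The means lay below 0 for 34 members and above 0 for 27, while 53.9% of all genes lay above 0. A single sign on all 4 arrays was seen above 0 for 3 members (4.92%, against 9.89% of all genes) and below 0 for 7 of 61 (against 9.44%). The shares at an unadjusted p below 0.05 and the share below 0 on all arrays lie near those of all genes. The share above 0 on all arrays was lower and rests on 3 members. Means above 0 were also fewer (44.3%, against 53.9%), and neither difference was tested.

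The alpha chains of integrins held the members farthest from 0 in both directions. The 5 members with one sign on all 4 arrays and a mean of at least 0.2 from 0 were Itga9 and Itga6 above it and Itga8, Itgav and Col8a1 below it, where 9.07% of all genes met this rule. With Itga7, singled out after its values were seen, they are also the 6 members with an unadjusted p below 0.05. The spread of members' ratios was smallest on array 1 (SD 0.17 over 61 genes, 0.24 over all genes) and largest on array 3 (0.36, and 0.43 over all genes).

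**Figure D1:**
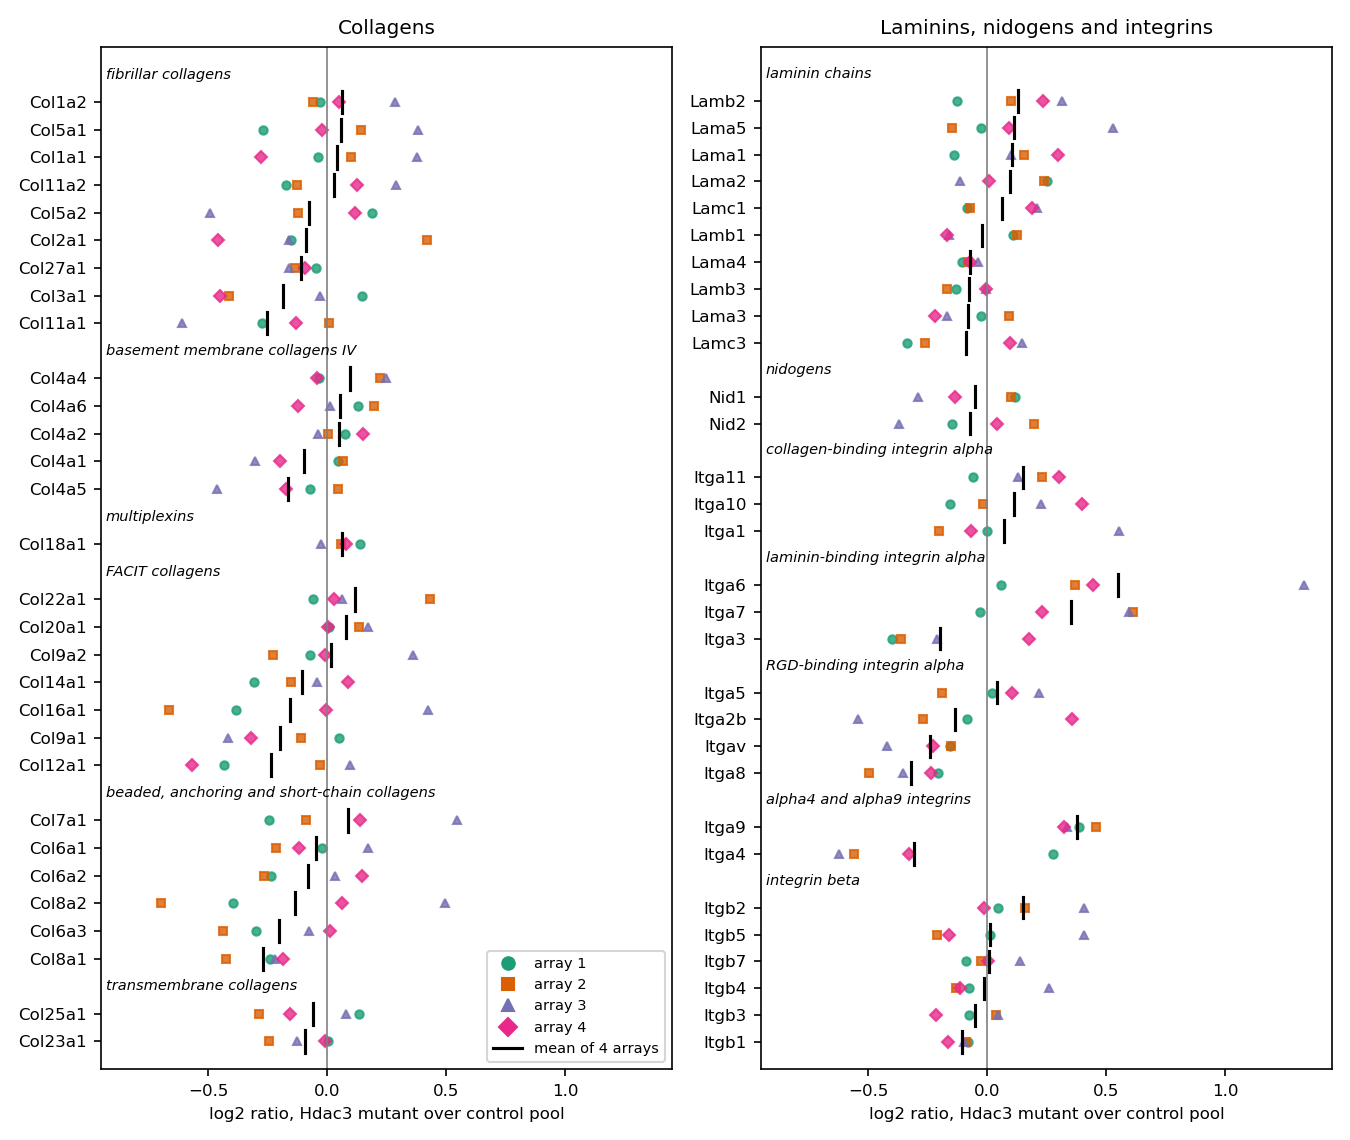
Log2 ratio of mutant over control (x axis) of 60 members (rows, grouped by kind) on each of the 4 arrays (symbols), with the mean as a black bar. Most bars lie within 0.2 of 0 and most rows straddle it, the 4 points of Itga9 lie together between 0.32 and 0.46, and the array 3 point of Itga6 stands at 1.33.

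Fibrillar collagens, the chains of banded fibrils that give tissue its tensile strength, had a median of -0.078 (9 of 11 genes measured, 5 below 0 and 4 above). Col1a1, the main chain of collagen I, had ratios of -0.040, 0.10, 0.38 and -0.28 on arrays 1 to 4, so 2 pairs of pools lay on either side of 0. Its mean was 0.040 ± 0.27 (SD, n = 4), and its log2 intensities were 10.95, 11.23, 11.49 and 11.24 in mutant pools, against 10.998, 11.14, 11.12 and 11.51 in control pools, which overlapped. Without replicate 3 the mean was -0.073, and without replicate 4 it was 0.15. Col1a2, the partner chain of Col1a1, had a mean of 0.062 ± 0.16, and Col3a1, the collagen of compliant tissues, one of -0.19 ± 0.29 (0.053 as labelled). Col2a1, best known from cartilage and the brightest probe of this group, was at -0.15, 0.42, -0.16 and -0.46. Its mean of -0.089 ± 0.37 was above 0 only on array 2, became 0.035 without replicate 4 and was 0.22 as labelled. Col11a1, which nucleates fibrils, had the lowest mean of the group, -0.25 ± 0.26, which was -0.13 without replicate 3 and 0.12 as labelled. The ratios of Col27a1 were all below 0 but small, between -0.16 and -0.048, with a mean of 0.018 as labelled.

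Collagen IV, the network-forming collagen of basement membranes, showed no common direction, with 3 of 5 measured chains above 0 and a median of 0.049. Col4a1 and Col4a2 assemble into one trimer and are transcribed away from each other, from start sites that lie 21 bases apart on opposite strands of chromosome 8 in RefSeq (GRCm38.p6). Col4a1 was at 0.046, 0.068, -0.30 and -0.20 on arrays 1 to 4, against 0.077, 0.0050, -0.039 and 0.15 for Col4a2. The chains had the same sign on arrays 1 to 3 and opposite signs on array 4, and the means were -0.097 ± 0.18 for Col4a1 and 0.049 ± 0.084 for Col4a2 (SD, n = 4). Read as labelled, Col4a1 was above 0 on all 4 arrays with a mean of 0.15. Col4a5 was at -0.16 ± 0.22, Col4a6 at 0.055 ± 0.14 and Col4a4, the dimmest of the 5 chains, at 0.098 ± 0.16. Col18a1, the basement membrane collagen from which endostatin is cleaved, was at 0.14, 0.057, -0.025 and 0.080, and its mean was 0.062 ± 0.067.

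Of the collagens that decorate fibrils or form beaded filaments and short networks, more lay below 0 than above it. The fibril-associated group had 4 of 7 measured members below 0 (median -0.10), and its brightest member, Col22a1, was at 0.12 ± 0.22 (SD, n = 4), which fell to 0.011 without replicate 2, the array on which it read 0.43. Col12a1 had the lowest mean of the group (-0.23 ± 0.32, -0.12 without replicate 4, 0.0017 as labelled). The group of beaded, anchoring and short-chain collagens had 5 of 6 members below 0 (median -0.11), with medians of -0.24 and -0.35 on arrays 1 and 2 and of 0.10 and 0.038 on arrays 3 and 4. Col6a1, a chain of the beaded filaments of collagen VI, was at -0.046 ± 0.16 (0.0097 without replicate 2, -0.12 without replicate 3), and Col6a3 at -0.20 ± 0.20. Col8a1, a short-chain collagen of the matrix beneath endothelium, was at -0.24, -0.43, -0.22 and -0.18, and all 4 ratios were below 0. Its mean was -0.27 ± 0.11, a ratio of 0.830 (limma, adjusted p = 0.624). From mean signals, its log2 intensities were 7.27, 6.75, 7.04 and 7.16 in mutant pools, against 7.18, 7.26, 7.14 and 7.40 in control pools, so the groups overlapped and on array 1 the mutant pool was the higher one. The probe was dim, and its mean was -0.55 from the scanner's processed signals, -0.19 after loess normalization of the mean signals and -0.066 as labelled. The transmembrane collagens Col23a1 (-0.094 ± 0.12) and Col25a1 (-0.058 ± 0.20) both had probes of opposite sign in the deposited columns, though not after loess normalization of the mean signals.

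All 11 laminin chains on the arrays were measured, with 5 means above 0, 6 below and a median of -0.023. Laminins are cross-shaped trimers of an alpha, a beta and a gamma chain that start the assembly of a basement membrane. Lama4, the alpha chain of endothelial and muscle basement membranes, was at -0.10, -0.082, -0.038 and -0.070 on arrays 1 to 4. All 4 ratios were below 0 and close together in this direction, whereas as labelled arrays 3 and 4 lay above 0 and the mean was -0.020 ± 0.086. The mean was -0.074 ± 0.028 (SD, n = 4; adjusted p = 0.753), and the log2 intensities of 11.90, 11.91, 11.90 and 12.07 in mutant pools overlapped those of 12.01, 11.997, 11.94 and 12.14 in control pools. Lamb1 and Lamc1, the beta and gamma chains shared by most laminins, split by array. Lamb1 was at 0.11, 0.13, -0.16 and -0.17, against -0.084, -0.074, 0.21 and 0.19 for Lamc1. In both, the sign on arrays 1 and 2 was opposite to that on arrays 3 and 4, so each kept one sign as labelled, with means of 0.14 for Lamb1 and -0.14 for Lamc1, against -0.023 and 0.061 with the signs of the deposited columns. Lamb2 had the highest mean of the chains (0.13 ± 0.19, 0.070 without replicate 3, -0.14 as labelled). Lamb3 was the only member whose log2 intensities were lower in every mutant pool (7.54 to 7.69) than in any control pool (7.71 to 7.80), as was so for 1.31% of all genes, but by a mean log2 ratio of only -0.078 ± 0.086.

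The nidogens bridge laminin and collagen IV. Nid2 was at -0.15, 0.20, -0.37 and 0.040 (mean -0.070 ± 0.24, SD, n = 4; 0.029 without replicate 3), and Nid1 at 0.12, 0.099, -0.29 and -0.13 (mean -0.053 ± 0.20; 0.16 as labelled). By these probes neither had one sign on all arrays. The other Nid1 probes, both dim, had means of -0.12 and -0.34. The latter probe was below 0 on all 4 arrays (-0.40, -0.27, -0.43 and -0.25). Its mean was -0.096 after loess normalization of the mean signals and 0.00425 as labelled.

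Itga9, the alpha chain of a receptor for tenascin-C and for fibronectin with the EIIIA domain, had the most reproducible difference of the integrins. Its single probe lies at chr9:118807900-118807959 (mm9, plus strand), and its first 30 bases are shown because the clearest difference among the members rests on it.
Itga9: taccttcagctttgtgtagccaaaaaagcc
The log2 ratio was 0.39, 0.46, 0.34 and 0.32 on arrays 1 to 4. Log2 intensities were 11.89, 12.02, 12.22 and 12.07 in mutant pools, against 11.52, 11.57, 11.89 and 11.76 in control pools. The mutant pool was the higher one of each pair, and the groups touched without overlapping, as in 1.38% of all genes. Its mean log2 ratio of 0.38 ± 0.060 (SD, n = 4) equals a 1.30-fold level. Its unadjusted p of 0.00163 was the smallest among the members and ranked 50th among all genes, and it did not pass (limma, adjusted p = 0.616). With 4 pairs the smallest two-sided p of an exact sign-flip test is 0.125. Leaving out any one replicate moved the mean only between 0.35 and 0.39, whereas it was 0.046 in the labelled direction, with arrays 1 and 2 above 0 and arrays 3 and 4 below it.

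Itga4, the related alpha chain that binds VCAM1 and fibronectin, did not follow Itga9. It was at 0.28, -0.56, -0.62 and -0.33, above 0 on array 1 and below it on the other arrays. Its mean was -0.31 ± 0.41 (SD, n = 4) and lay at -0.20 without replicate 3, -0.50 without replicate 1 and 0.17 as labelled.

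The laminin-binding alpha chains diverged, with Itga6 and Itga7 above 0 and Itga3 at -0.20 ± 0.26. Itga7, the laminin receptor of striated muscle, was at -0.029, 0.61, 0.59 and 0.23. Its log2 intensities were 8.18, 8.79, 9.20 and 8.91 in mutant pools, against 8.25, 8.21, 8.77 and 8.68 in control pools. Arrays 2 to 4 were higher in the mutant pool and array 1 was not, and the groups overlapped (mean 0.35 ± 0.31, SD, n = 4; adjusted p = 0.624; -0.060 as labelled).

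Itga6, the laminin receptor found on epithelia and endothelium, had the largest mean of all members but not in both of its probes. The brighter probe, at chr2:71694756-71694815, and the dimmer one, at chr2:71690633-71690692 (mm9, plus strand), lie 4063 bases apart, and their first 30 bases are shown because they gave different answers.
Itga6, brighter probe: gagaatgagaacctgggaggtcttgttgtt
Itga6, dimmer probe: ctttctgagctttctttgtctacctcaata
The brighter probe was at 0.057, 0.37, 1.33 and 0.44 on arrays 1 to 4 and the dimmer one at 0.17, -0.076, 0.15 and 0.024. All 4 ratios of the brighter probe were above 0, by very unequal amounts, and array 3 alone set much of its mean of 0.55 ± 0.55 (SD, n = 4), a ratio of 1.47 (limma, adjusted p = 0.624). That mean was 0.29 without replicate 3 and -0.34 as labelled, and the dimmer probe's mean was 0.067 ± 0.11. Log2 intensities of the brighter probe were 14.88, 15.26, 16.09 and 15.38 in mutant pools, against 14.83, 14.89, 14.77 and 14.93 in control pools. The control pools lay close together and the mutant pools did not.

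**Figure D2:**
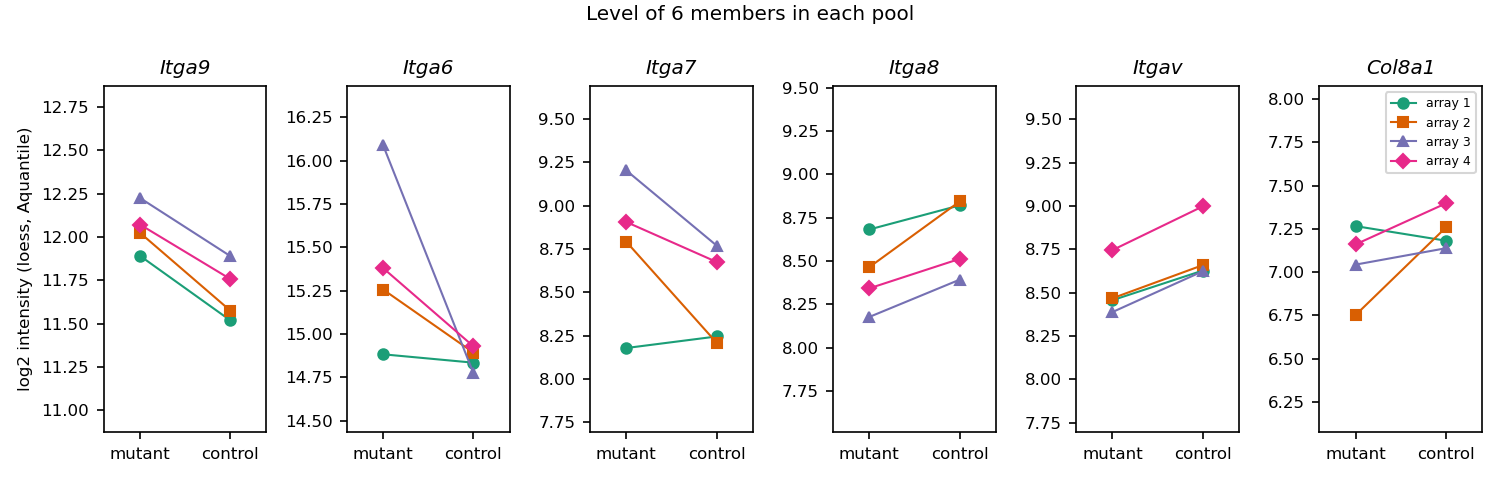
Log2 intensity after loess and Aquantile normalization (y axis, each panel spanning the same width of 2 log2 units) of 6 members in each mutant pool (left) and the control pool of the same array (right), joined by a line per array. Itga9 lines fall from mutant to control on all 4 arrays, the Itga6 mutant pools spread from 14.88 to 16.09 while the control pools lie between 14.77 and 14.93, and Itga8 and Itgav lines climb from mutant to control.

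The alpha chains that recognise the RGD sequence of fibronectin, vitronectin and nephronectin had a median of -0.19, with 3 of 4 members below 0. Itga8, the nephronectin receptor, was measured by 1 probe at chr2:12028462-12028521 (mm9, minus strand), which is shown because it holds the lowest mean of the members.
Itga8: catacattggtattctcgaggagtctatct
Itga8 was at -0.20, -0.50, -0.35 and -0.23 on arrays 1 to 4, so all 4 ratios were below 0. Its log2 intensities were 8.68, 8.47, 8.18 and 8.34 in mutant pools, against 8.82, 8.84, 8.39 and 8.51 in control pools, which overlapped between arrays although the mutant pool was the lower one on each. This gave -0.32 ± 0.13 (SD, n = 4), or 0.800 times the control level (limma, adjusted p = 0.624), and -0.029 as labelled. Itga5, the fibronectin receptor, was at 0.040 ± 0.17 (-0.021 without replicate 3), and Itga2b, the alpha chain of the platelet fibrinogen receptor, at -0.14 ± 0.38 (0.0013 without replicate 3).

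Itgav, the alpha chain shared by receptors for vitronectin and latent TGF-β, again differed between its probes. They lie 2168 bases apart on chromosome 2, at chr2:83646133-83646192 for the brighter and chr2:83643905-83643964 for the dimmer (mm9, plus strand).
Itgav, brighter probe: gggaatttagtggcaaagtatatattggta
Itgav, dimmer probe: tttgcacaggcacttagaacaggtacacat
The brighter probe was at -0.16, -0.15, -0.42 and -0.23, below 0 on every array, with log2 intensities of 8.46, 8.47, 8.39 and 8.75 in mutant pools, against 8.63, 8.66, 8.62 and 8.998 in control pools. Its mean was -0.24 ± 0.13 (SD, n = 4), a ratio of 0.847 (adjusted p = 0.624), and 0.085 as labelled. The dimmer probe was at 0.068, -0.046, 0.14 and 0.0020, with a mean of 0.041 ± 0.081. The sign of Itgav thus depended on the probe used.

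The collagen-binding alpha chains Itga1, Itga10 and Itga11 all had means above 0 (0.071, 0.11 and 0.15), with none of one sign on all arrays. Itga1 was measured by probes 62967 bases apart on chromosome 13, both placed over stretches longer than the probe in mm9 (from 115756765 to 115758419 and from 115821387 to 115825525, minus strand).
Itga1, brighter probe: tcataaaagcacatttttccagcttaaatc
Itga1, dimmer probe: ttgggagagagagatcaatgccttgtgtga
The brighter probe was at -0.0010, -0.20, 0.56 and -0.069, and the dimmer at -0.014, -0.27, 1.51 and 0.31. Both were far higher on array 3 than on the other arrays, and the mean of the brighter probe was -0.090 without replicate 3 and -0.17 as labelled. In Itga10 the probes read alike, at 0.11 ± 0.25 and 0.090 ± 0.15 (SD, n = 4).

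Means of beta chains ran from -0.11 for Itgb1 to 0.15 for Itgb2, the leukocyte beta chain, against -0.32 to 0.55 for alpha chains. Itgb1, the common partner of most alpha chains measured here, had probes 3672 bases apart on chromosome 8 (mm9, plus strand), the brighter split over 131250081 to 131255976 and the dimmer from 131246349 to 131246408. Both are shown whole, because they read parts of the coding sequence that encode different parts of the protein. Capitals mark the codons of the NPxY motifs in the tail, where talin and kindlin bind, and the dimmer probe reads a cysteine-rich part outside the cell.
Itgb1, brighter probe: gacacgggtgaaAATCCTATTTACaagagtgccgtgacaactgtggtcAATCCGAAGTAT
Itgb1, dimmer probe: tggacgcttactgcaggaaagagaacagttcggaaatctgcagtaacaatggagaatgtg
The brighter probe was at -0.082, -0.087, -0.098 and -0.16, below 0 on all 4 arrays by small and similar amounts (mean -0.11 ± 0.038, SD, n = 4; adjusted p = 0.675; 0.023 as labelled). The dimmer one was at 0.076, 0.010, 0.59 and -0.23, with a mean of 0.11 ± 0.35. Itgb5, a partner of Itgav and the brightest beta chain, was at 0.014, -0.21, 0.41 and -0.16, a mean of 0.013 ± 0.28, which was -0.12 without replicate 3. Itgb3, another partner of Itgav, was at -0.053 ± 0.12.

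Of the 61 members, 17 had several probes past the filter, and in 8 of them at least 1 other probe had a mean of opposite sign (Col8a2, Col9a1, Col20a1, Col23a1, Col25a1, Itgav, Itgb1 and Itgb3). The probes of Col18a1, which gave 0.062 and 0.061, stood at the other end. These signs are those of the deposited columns. After loess normalization of the mean signals, all probes of Col8a2, Col20a1, Col23a1 and Col25a1 past the filter had means below 0. Those of Col9a1, Itgav, Itgb1 and Itgb3 still differed in sign, and Nid1 then had probes at -0.050 and 0.050.

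**Figure D3:**
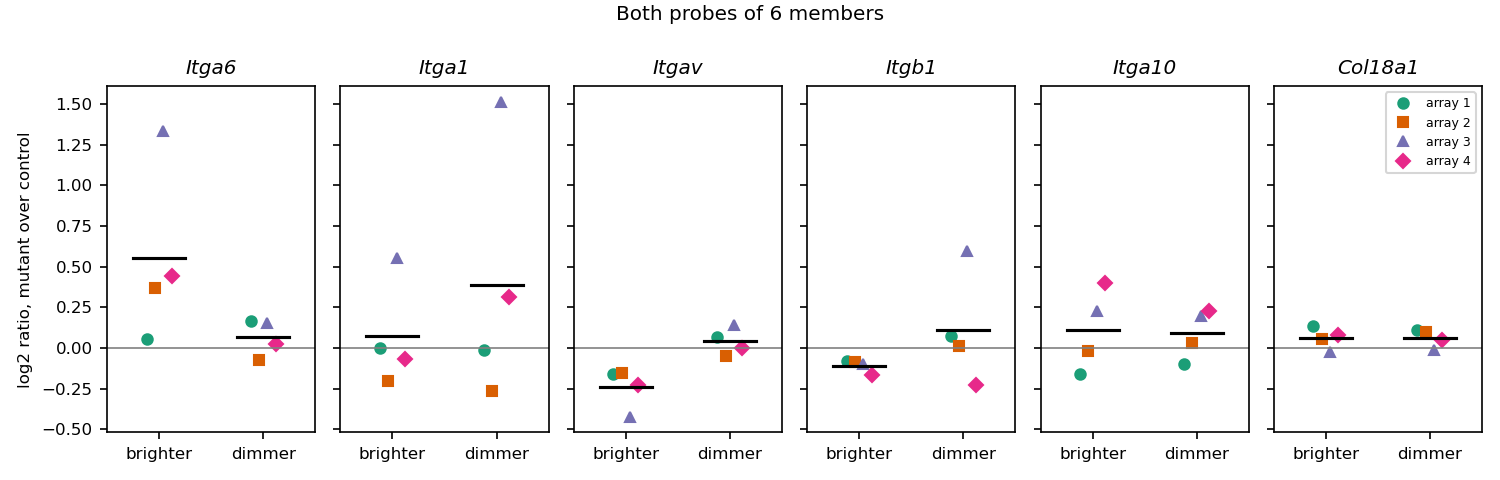
Log2 ratio of mutant over control (y axis) on each array (symbols) for the brighter and the dimmer probe of 6 members, with the mean as a black bar. The probes of Col18a1 and Itga10 lie at like heights, while the bars of Itga6 stand at 0.55 and 0.067 and those of Itgav and Itgb1 lie on either side of 0.

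Across members, the ratios of arrays 1 and 2 correlated at r = 0.34 and those of arrays 3 and 4 at 0.39, and the other 4 pairs of arrays lay between -0.031 and 0.20 (61 genes, described across genes that share the same pools). Read as labelled, 40 of 61 members turned the sign of their mean, 3 members were above 0 on all arrays (13.9% of all genes) and 10 below (13.8%). Of all 19864 genes, 1679 were higher and 1526 lower at an unadjusted p below 0.05 in that reading. The 7 members below that p all lay below 0. They were Col8a2 (-0.41 ± 0.26, SD, n = 4), Col16a1 (-0.37 ± 0.28), Col7a1 (-0.25 ± 0.20), Lamc3 (-0.21 ± 0.11), Itga10, Col11a2 and Col6a2, named after their values were seen, and none passed (limma, smallest adjusted p = 0.177). None of them is among the 6 members with an unadjusted p below 0.05 under the signs of the deposited columns.

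**Figure D4:**
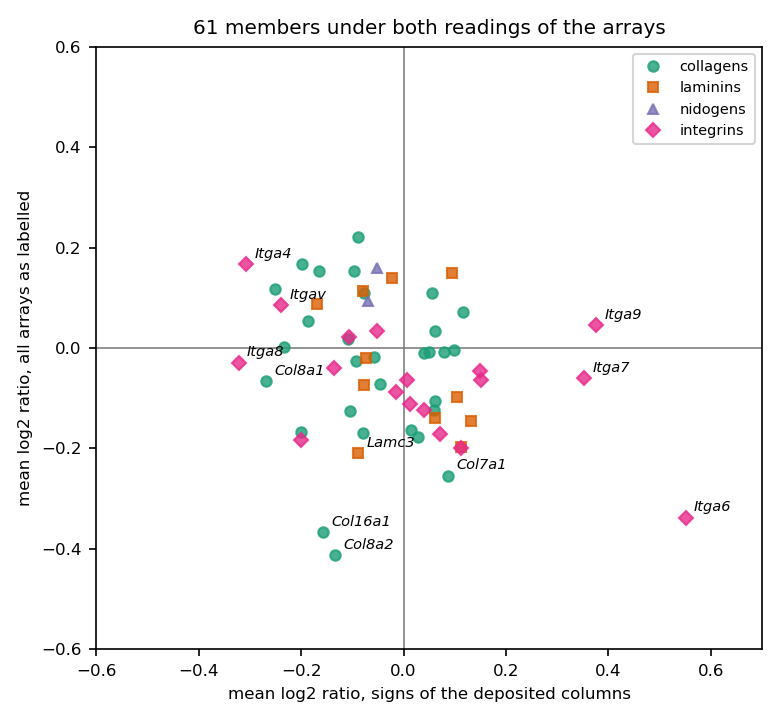
Mean log2 ratio of the 61 members with the signs of the deposited columns (x axis) against the mean with all arrays read as labelled (y axis), coloured by family. Itga9 lies at 0.38 and 0.046, Itga6 at 0.55 and -0.34, and Col8a2 at -0.13 and -0.41.

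Genes that work with these families were read from fixed lists, and none passed. Of 23 measured genes of collagen synthesis and crosslinking, 9 lay above 0 and 14 below (median -0.057). At an unadjusted p below 0.05, 0 were higher (against 3.64% of all genes) and 2 lower (8.7%, against 4.32%). These were Pcolce2, an enhancer of procollagen processing, at -0.21, -0.36, -0.34 and -0.21 (mean -0.28 ± 0.082, SD, n = 4), and Loxl1, a crosslinking lysyl oxidase, at -0.072, -0.72, -0.43 and -0.51 (mean -0.43 ± 0.27). Both were below 0 on every array, as was Crtap, a cofactor of collagen prolyl hydroxylation (-0.14 ± 0.087). As labelled these means were -0.0085 for Pcolce2, 0.039 for Loxl1 and 0.045 for Crtap. Of 16 other integrin ligands and basement membrane partners, 8 lay on either side of 0. Postn, which encodes the valve matrix protein periostin, was at -0.50, -1.31, -0.68 and -0.51. It was lower in all 4 mutant pools (mean -0.75 ± 0.38; adjusted p = 0.624; -0.56 without replicate 2; -0.16 as labelled). Dag1, a laminin receptor outside the integrin family, was at 0.22 ± 0.31 (0.079 without replicate 3, -0.21 as labelled) and Fbln5, an elastic fibre protein, at -0.13 ± 0.13 (0.010 after loess normalization of mean signals and as labelled). Of 16 adaptors and kinases of integrin adhesions, 10 lay above 0 and 6 below, with Lims2, a partner of the integrin-linked kinase, at 0.35 ± 0.42 (0.54 without replicate 1, -0.33 as labelled), Vcl, vinculin, at -0.31 ± 0.39 (-0.13 without replicate 3, 0.25 as labelled) and Fermt3 at -0.15 ± 0.15 (-0.099 without replicate 3, 0.083 as labelled). Of 11 matrix proteases and inhibitors, 6 lay above 0 and 5 below, with Mmp11 at 0.21 ± 0.19, Timp3 at 0.17 ± 0.13 (0.10 without replicate 4) and Adamts9 at -0.16 ± 0.078. As labelled they were at 0.026, -0.078 and 0.016. In these 3 lists Postn alone had an unadjusted p below 0.05, where 3.64% of all genes were higher and 4.32% lower.

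In RNA of whole hearts, fewer cells of a type and less RNA per cell cannot be told apart. Signs and pools below follow the deposited columns. As labelled, the ratios of arrays 3 and 4 turn sign and their mutant and control pools change places. All 10 endocardial and endothelial markers were past the filter, 6 above 0 and 4 below, with a median log2 ratio of 0.22 and summed intensities of 16105 to 34558 in mutant pools, against 14887 to 16533 in control pools. On array 3, the array of widest spread over all genes (SD 0.43), Kdr was at 2.22 and Tek at -1.08, whereas on the other arrays Kdr lay between 0.36 and 0.47. Itga6 and Itga1 also stood apart on array 3, as did Hspg2 (1.22) and Serpinh1 (1.02) of other lists. All 6 epicardial markers were past the filter and below 0 (median -0.26), with sums of 5184 to 10964 in mutant pools, against 6219 to 10807 in control pools. Mesenchymal markers, 10 of 10 past the filter and 5 on either side of 0, had a median of -0.026. Among those below 0, Lum, which encodes the collagen-binding proteoglycan lumican, was at -1.17, -1.11, -1.22 and -0.84 (mean -1.08 ± 0.17; limma, adjusted p = 0.353). Dcn, decorin, was at -0.51 ± 0.60 and Tcf21, also counted as epicardial, at -0.42 ± 0.29. Among those above 0, Twist1 (0.28 ± 0.36) and Snai1 (0.10 ± 0.066) were so on all 4 arrays, and Prrx2 and Pdgfra were both at 0.13. As labelled, the ratios of Lum lie below 0 on arrays 1 and 2 and above 0 on arrays 3 and 4. The 6 measured markers of primitive red cells all had means below 0 (median -0.29), with sums of 201448 to 379538 in mutant pools, against 319714 to 417999 in control pools. The 6 measured markers of foregut and pharyngeal endoderm all had means above 0 (median 0.15), with Shh and Cdh1 not past the filter. Their sums were 39168 to 61524 in mutant pools, against 40685 to 45198 in control pools. The keratins Krt18, Krt8 and Krt19 were the brightest of them (mean processed signals of 14710, 10931 and 4648), whereas Foxa2 and Epcam were dim (18 and 21). Markers of parietal endoderm and yolk sac, which make much laminin and collagen IV, had 6 of 9 above 0 (median 0.14), with Apoa1 not well above background. Their sums were 15357 to 19152 in mutant pools, against 14728 to 19631 in control pools. The brightest of them was Gata6, at -0.027 ± 0.13. Afp (0.86 ± 0.89) and Ttr (0.36 ± 0.33), both dim, were above 0 on all 4 arrays, and Plat (-0.33 ± 0.20) was below 0 on all 4. For platelets and leukocytes, where Itga2b, Itgb3 and Itgb2 are at home, 8 of 9 markers were past the filter (Ptprc was not) and 4 lay on either side of 0. As labelled, the means of the epicardial markers Wt1, Tbx18 and Tcf21 and of the red cell marker Hbb-bh1 lie above 0. Those of the foregut marker Krt18 and of Kdr lie below it. In that reading the epicardial, red cell and foregut lists each hold both signs. The part of these cell types in the values of the members was not tested.

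The filter left out 16 of the 77 genes: Col4a3, Col5a3, Col6a4, Col6a5, Col6a6, Col9a3, Col10a1, Col13a1, Col15a1, Col17a1, Col19a1, Col24a1, Col28a1, Itga2, Itgb6 and Itgb8. All laminins and nidogens passed it. Just inside was Col11a2, well above background on all 4 arrays in Cy3 and on 3 in Cy5, with ratios of -0.17, -0.13, 0.29 and 0.12. Just outside was Col13a1, well above background on 3 arrays in each channel, with ratios of -0.30, -0.43, -0.12 and 0.26. For the other 60 members both channels passed on each of the 4 arrays.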

How the data were processed

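RNA of E9.5 mouse hearts was measured on 4 dual-colour arrays of 1 slide design, each with a mutant and a control pool of 3 hearts. The authors deposited a table of log2 ratios, whose normalization neither the labels nor the file headers state, and scanner files with mean, background and processed intensity per spot from Agilent Feature Extraction 11.5.1.1, per the file headers (8.5.1.1 per the submitters' processing notes). Well-above-background and outlier flags, recorded by the authors' software, are 0 or 1 (other values). Processed intensities were background-subtracted and dye-normalized, per the file headers.

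Deposited rows were joined to the 43020 non-control spots by probe name, spots of a probe were averaged, and column medians were -0.029, -0.017, 0.017 and 0.023. In a channel, 66.6% to 71.2% of probes passed the background flag, no spot was saturated, and the number of arrays limits the precision. A probe with several spots counted as well above background if at least 50% of them were. Ratios were tested against 0 with limma 3.58.1 (R 4.3.3, lmFit and eBayes) over 19864 genes named by the GeneName column. The array pairs the pools, since same-numbered pools share an array, so the ratio is a fit with the replicate as block. The labels call the pairs biological replicates. Intensities per pool come from mean signals (normexp with offset 50, loess, Aquantile). The steps were tested on simulated data.

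Named were Col1a1, Lama4 and Itga9, members with one sign on all 4 arrays and a mean of at least 0.2 from 0, the brightest member of each group, the 4 members of smallest p, and 3 genes of smallest p per pathway list; other members named illustrate their group or were singled out after their values were seen. The members and lists were chosen with earlier results of these data known. The values of 1 member are not reported here. Alternatives were another source of ratios, the direction of arrays, a dye term, centring, filters, probe averaging, array weights, leaving out replicates and no replicate block.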

Additional observations from a re-analysis of the deposited data

Results flagged for a closer look

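Itgb4, a laminin-binding beta chain at -0.076, -0.13, 0.26 and -0.11 on arrays 1 to 4, was the 1 of 61 members with a replicate far from the other 3, its value of 0.259 in replicate 3. Chance alone marks about 1 in 20 groups of this size.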

How the results depend on the processing

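In none of the 17 other settings did any member pass, the smallest member adjusted p being 0.055 (Itga9) with arrays 1 and 2 only. Over all genes the count called was 0, but 366 with all arrays read as labelled (341 higher, 25 lower), 383 with the columns that run with Cy5 over Cy3 only, 1 with array weights and 0 to 1 over leaving out each replicate (1 without replicate 1). The members' median of -0.052 was 0.025 with the columns that run against Cy5 over Cy3 only and ran from -0.065 to 0.0097 over leaving out each replicate, above 0 only without replicate 2. The fit with no replicate block used intensities per pool from mean signals, not the deposited ratios. Its median of -0.040 was that of the loess ratios from mean signals, so leaving out the block did not move it. In it 0 of 61 members passed (limma, smallest adjusted p = 0.981). At an unadjusted p below 0.05, 334 genes were higher and 316 lower. These counts were 741 and 779 with the loess ratios, which keep the block, and 723 and 858 with the deposited ratios. No call changed. With the deposited ratios, the counts were 1418 and 1555 with a dye term and 2559 and 2093 with array weights. The cause of these differences was not tested. Signs of members' means turned for 40 of 61 as labelled, 20 with arrays 1 and 2 only, 9 with arrays 3 and 4 only, 17 with array weights, 16 without replicate 3 and 5 or fewer in the other settings. Dim probes such as that of Col8a1 limit precision: its mean was -0.27 in the deposited columns and -0.55 in processed signals.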
